A study of Rattus norvegicus with 14 samples.

Results

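The genes described here encode subunits of the mitochondrial respiratory chain and of ATP synthase, measured in liver. They were chosen by name: every gene whose symbol starts with Nduf, Uqcr, Atp5, Cox4i, Cox5, Cox6, Cox7 or Cox8, together with Sdha, Sdhb, Sdhc, Sdhd, Cyc1, Cycs, Tfam and Nrf1, provided that it had a probe annotated with exactly 1 gene symbol. This gave 83 of the 14506 genes tested. They comprise 32 complex I subunits, 3 complex I assembly factors, 4 subunits of complex II, 7 of complex III, 16 of complex IV, 16 genes of ATP synthase, Cycs, Tfam and Nrf1, and 2 symbols of pseudogenes (Cox6c-ps1 and Ndufs6-ps1). Cyc1 was not analysed here, and the brightest probe was used for the 12 members with several probes. Livers came from female Zucker rats of genotype fa/+, which carry 1 mutant copy of the leptin receptor gene and stay lean, and which were about 15 weeks old by the title of the series. The 7 control rats ate a standard diet. The 7 extract rats ate the standard diet with a rosemary extract that contained 40% carnosic acid, a diterpene of rosemary. Feeding lasted 64 days in both groups, and each rat gave 1 array. The extract made up 0.05% of the diet (weight by weight) by the sample labels but 0.5% by the title of the series. The study asked whether eating the extract was accompanied by changes in liver gene expression.

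The respiratory chain sits in the inner mitochondrial membrane. Complex I and complex II pass electrons from NADH and succinate to ubiquinone, complex III hands them to cytochrome c, and complex IV gives them to oxygen. Complexes I, III and IV pump protons, and ATP synthase uses the proton gradient to make ATP. In liver this supplies the energy for gluconeogenesis, urea synthesis and bile acid production. A few subunits of complexes I, III, IV and ATP synthase are encoded by mitochondrial DNA and were not analysed here; the rest, treated below, are encoded in the nucleus.

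Values were log2 expression values of whole-transcript arrays, and a fold below is the log2 difference, extract minus control. Over the 14506 genes the array medians ran from 6.00 to 6.18, and pairs of arrays correlated at 0.984 to 0.997. The median standard error of a fold was 0.0867 over all genes and 0.0920 over the members, and the 7 arrays per group limit this precision. In limma's moderated test with Benjamini-Hochberg adjustment, 457 of 14506 genes (3.15%) passed an adjusted p of 0.05, of which 290 were higher with the extract. The tissue label was checked against the level of 12 hepatocyte markers: their mean lay between 12.53 and 12.73 in every rat. Between extract and control, a separate question, 0 of these 12 passed the test. The 9 skeletal muscle markers had a mean between 4.19 and 4.53.

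Of the 83 respiratory chain genes, 0 passed the test, against 3.15% of all genes in either direction and 2.00% in the upward direction. The unequal-variance test per gene also called 0. The members were brighter than most genes, since only 7 had a mean under that of the median gene. When genes under that median were dropped, 425 genes passed, and Ndufa2 was the 1 member among them, of 76 members tested. This filter leaves only the brighter genes, so the 3.15% over all genes is not the share to set beside this count. At an unadjusted p under 0.05 the fit over all genes had 15 members (18.1%), against 14.8% of all genes. Of these members 4 were higher with the extract and 11 lower, whereas all genes had 1080 higher and 1074 lower. The split of the members varied with the setting. The unequal-variance test put 12 members there, 6 higher and 6 lower. The fit without the 2 arrays of lowest weight had 11, 6 higher and 5 lower. Centring each array on its median gave 11, 7 higher and 4 lower. Repeated quantile normalization gave 18, 3 higher and 15 lower, and array weights 16, 6 higher and 10 lower. The share of all genes at this p was not counted in these other settings. Ndufa2 and Ndufs1, both in the NADH-oxidising tip of complex I, were the 2 members (2.41%) with an adjusted p under 0.1, against 4.96% of all genes. The groups overlapped in all 83 members, and 1.54% of all genes had no overlap. The folds were small: 73 members lay within 0.25 of 0 on the log2 scale. For 70 members the 95% interval of the fold stayed within 0.5 of 0, and for 13 it reached beyond. The median fold was -0.05 over the members and -0.00 over all genes, with 52 members negative (62.7%) and 31 positive, against 50.3% negative over all genes. With each array centred on its own median, which moved the median of all genes to 0.03, 47 members were negative and 36 positive. The same centring changed the split of all calls from 290 higher and 167 lower to 415 higher and 144 lower.

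**Figure D1:**
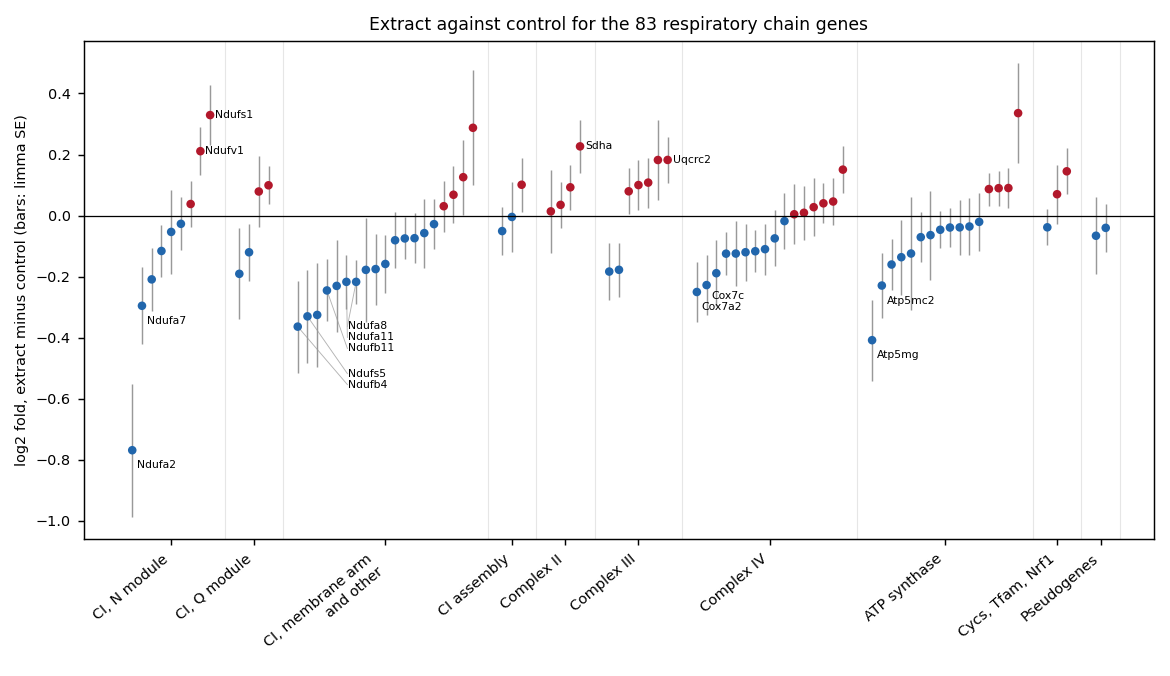
Log2 fold, extract minus control, of the 83 respiratory chain genes, sorted by fold within each class; points are folds from the fit over all genes, bars are 1 standard error each way, and names mark the 15 members with an unadjusted p under 0.05. Ndufa2 lies lowest at -0.77 and most members lie within 0.25 of the line at 0; red marks folds above 0 and blue folds below it.

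The promoters of 73 of the 83 members were in the RefSeq table of assembly GRCr8, as windows from 250 bases before to 50 after each gene's start. Nuclear respiratory chain genes are known for sites of NRF1, GABPA, YY1 and the estrogen-related receptor alpha, and carnosic acid is known to act on NRF2, which binds antioxidant response elements. The letters searched, on both strands, were CGCATGCG (NRF1), CCGGAAGT (GABPA), AAGATGGC (YY1), CAAGGTCA (estrogen-related receptor alpha) and TGACNNNGC (antioxidant response element). The NRF1 letters stood in 9 members (12.3%), against 2.67% of the 11951 genes with a promoter in the table. The YY1 letters stood in 13 members (17.8%), against 4.23% of genes. The GABPA letters stood in 8 members (11%) against 5.93% of genes, and the receptor's in 4 (5.48%) against 1%. The antioxidant response element letters stood in 10 members, 13.7%, beside 13.8% of all genes. At least 1 of the 5 motifs stood in 34 members. A match is a description of these letters and not a measured binding site. The promoters of 4 genes are shown: those of Ndufa2 and Ndufs1, the members with the smallest p below and above 0, that of Atp5mg, the ATP synthase gene with the smallest p, and that of Cycs, the mobile carrier between complexes III and IV. Each is written 5′ to 3′ in the direction of its gene, with the searched letters in capitals. All 4 genes lie on the minus strand of GRCr8, with Ndufa2 at chr18:28631835-28632134, Ndufs1 at chr9:72073556-72073855, Atp5mg at chr8:54130358-54130657 and Cycs at chr4:80984718-80985017.
Ndufa2: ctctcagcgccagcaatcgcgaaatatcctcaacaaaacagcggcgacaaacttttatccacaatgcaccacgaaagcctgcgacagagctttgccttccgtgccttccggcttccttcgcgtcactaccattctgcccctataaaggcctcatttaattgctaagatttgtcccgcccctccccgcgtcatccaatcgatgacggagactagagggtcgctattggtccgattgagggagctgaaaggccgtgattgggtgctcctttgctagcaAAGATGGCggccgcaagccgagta
Ndufs1: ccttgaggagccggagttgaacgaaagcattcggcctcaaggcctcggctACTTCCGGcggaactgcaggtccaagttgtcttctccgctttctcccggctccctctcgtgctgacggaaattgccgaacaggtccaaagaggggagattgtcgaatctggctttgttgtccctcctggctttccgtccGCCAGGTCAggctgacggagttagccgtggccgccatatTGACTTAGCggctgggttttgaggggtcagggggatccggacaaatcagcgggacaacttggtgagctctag
Atp5mg: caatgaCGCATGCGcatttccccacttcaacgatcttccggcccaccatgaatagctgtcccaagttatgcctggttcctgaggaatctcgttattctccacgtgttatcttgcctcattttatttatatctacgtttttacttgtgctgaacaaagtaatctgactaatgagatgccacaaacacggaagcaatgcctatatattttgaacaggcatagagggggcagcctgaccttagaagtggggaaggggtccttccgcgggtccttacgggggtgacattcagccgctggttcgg
Cycs: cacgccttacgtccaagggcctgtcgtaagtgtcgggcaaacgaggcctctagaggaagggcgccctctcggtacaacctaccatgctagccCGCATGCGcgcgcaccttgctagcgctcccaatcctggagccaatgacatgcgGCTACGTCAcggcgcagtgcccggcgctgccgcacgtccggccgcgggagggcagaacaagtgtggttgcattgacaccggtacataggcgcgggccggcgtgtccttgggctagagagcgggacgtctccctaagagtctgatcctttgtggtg
In Ndufa2 the capitals are the YY1 letters, 27 to 34 bases after the start. In Ndufs1 they are, in order, the GABPA letters and 2 antioxidant response element matches. The GABPA letters and the first of these 2 matches read on the opposite strand. In Atp5mg they are the NRF1 letters, which read the same on both strands, and in Cycs the NRF1 letters followed by an antioxidant response element match on the opposite strand. The members with the NRF1 letters were not of 1 sign: 7 of the 9 had folds below 0, whereas Cycs and Uqcrc1 (named after its value was seen) had folds of 0.14 and 0.10. Those with the antioxidant response element letters had 5 of 10 below 0.

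Complex I oxidises NADH at the tip of its matrix arm, the N module, where 9 members were measured: 3 folds were above 0 and 6 below, with a median of -0.05. Ndufs1, the largest core subunit, which holds iron-sulfur clusters, had values of 8.88 (lowest), 9.26 (median) and 9.57 (highest) in control rats and 9.43, 9.47 and 9.82 in extract rats. All 7 extract rats lay above 6 of the 7 control rats, and control rat 2 lay among them. Its fold was 0.33 ± 0.10 (SE, n = 7 per group; adjusted p = 0.089). Leaving out control rat 2 gave an adjusted p of 0.041 and centring each array on its median gave 0.040, within a range of 0.0402 to 0.196 over the 25 alternatives. Ndufv1, the core flavoprotein that binds NADH, ran through 9.57, 9.74 and 9.93 in control rats and 9.71, 9.89 and 10.16 in extract rats. The fold was 0.21 ± 0.08 (adjusted p = 0.19), and 3 extract rats lay above every control rat. Ndufa2, a small accessory subunit of the same module, leaned the other way. It had 8.62, 9.37 and 9.66 in control rats and 7.55, 8.64 and 9.05 in extract rats, a fold of -0.77 ± 0.22 (adjusted p = 0.065). Control rats 2 and 5 overlapped with the extract rats, of which rats 1, 2 and 7 lay below every control. Without control rat 5 its adjusted p was 0.033 and without extract rat 6 it was 0.042, within a range of 0.0333 to 0.197 over the alternatives. It was 0.046 with either filter on dim genes and just under 0.05 with array weights. Ndufa2 also had the largest spread within groups of all members, an SD of 0.48. Ndufv2, the brightest gene of the module and a core iron-sulfur subunit, had a fold of 0.04 ± 0.07 (adjusted p = 0.89).

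The 4 members of the Q module, where ubiquinone is reduced, had 2 folds on each side of 0. The core iron-sulfur subunits Ndufs7 and Ndufs8 had folds of 0.10 ± 0.06 and -0.12 ± 0.09, and the accessory subunit Ndufa5 had -0.19 ± 0.15, with adjusted p of 0.51, 0.61 and 0.62. The remaining 19 complex I subunits, mainly of the proton-pumping membrane arm, had 15 folds below 0 and a median of -0.16. Of these, 5 (26.3%, against 14.8% of all genes) had an unadjusted p under 0.05, each with a fold below 0. This count was 5 with quantile normalization repeated, 4 with array weights and 3 in the unequal-variance test. It was 2 with median centring and 1 without the 2 arrays of lowest weight. All of these folds were again below 0, and the share of all genes was not counted in these settings. Ndufa8, which faces the intermembrane space, had 11.53, 11.70 and 11.93 in control rats and 11.36, 11.52 and 11.61 in extract rats. Its fold was -0.22 ± 0.07 (adjusted p = 0.12), and 4 extract rats lay below every control rat. With quantile normalization repeated, its adjusted p was 0.047, within a range of 0.0473 to 0.256 over the alternatives. Ndufa11 and Ndufb11, both membrane arm subunits, had folds of -0.22 ± 0.09 and -0.25 ± 0.10, with adjusted p of 0.24 and 0.25. The other 2 of the 5, Ndufb4 and Ndufs5, were named after their values were seen. Ndufb4 had a fold of -0.36 ± 0.15 and Ndufs5 one of -0.33 ± 0.15, with adjusted p of 0.25 and 0.31, and their second probes gave -0.35 and -0.33. Ndufb6, the brightest of these 19, had a fold of 0.03 ± 0.08. Ndufa10, a matrix-facing subunit whose probe was dim, spread widely, with an SD within groups of 0.41 and a fold of 0.29 ± 0.19 (adjusted p = 0.53). Ndufa10 was also named on a probe with several gene symbols, which the naming rule left out. The assembly factors Ndufaf1, Ndufaf3 and Ndufaf4, which help build complex I and are not part of it, had folds of 0.10 ± 0.09, -0.05 ± 0.08 and -0.00 ± 0.12. The sign of Ndufaf4 turned when arrays were centred on their medians.

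A split that follows structure rather than module was noticed after the values were seen and so has no test. Of the 6 core subunits measured, the set with bacterial counterparts that includes the carriers of flavin and iron-sulfur clusters, 5 had folds above 0, with a median of 0.09. Of the 26 accessory subunits, 22 had folds below 0, with a median of -0.17. The mean of the core subunits ran from 10.33 to 10.50 in control rats and from 10.41 to 10.64 in extract rats. That of the accessory subunits ran from 10.38 to 10.86 in control rats and from 10.20 to 10.76 in extract rats. The groups overlapped in both. These counts were 5 of 6 and 22 of 26 again with quantile normalization repeated, and 5 of 6 and 20 of 26 with median centring.

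**Figure D2:**
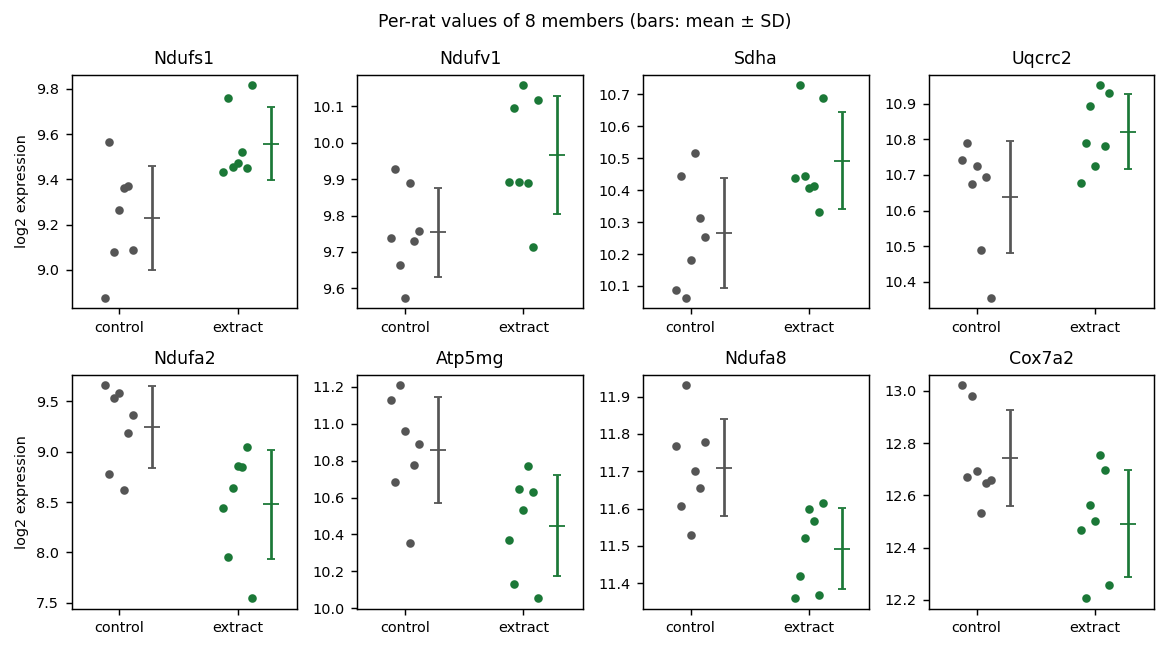
Log2 expression in each of the 14 rats for 8 members, 4 with folds above 0 (top) and 4 with folds below 0 (bottom); each point is 1 rat and the bars give the group mean and SD over 7 rats. Axes do not start at 0 and differ between panels. The groups overlap in all 8 panels.

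Complex II, the citric acid cycle enzyme succinate dehydrogenase, had 4 of 4 folds above 0. Sdha, the flavoprotein that oxidises succinate, had 10.06, 10.25 and 10.52 in control rats and 10.33, 10.44 and 10.73 in extract rats. Its fold was 0.23 ± 0.09 (adjusted p = 0.20). Control rats 2 and 5 were as high as most extract rats, and extract rats 2 and 7 were above every control. Sdhb, the iron-sulfur subunit, had a fold of 0.09 ± 0.07, and the membrane anchors Sdhc and Sdhd had 0.03 ± 0.08 and 0.01 ± 0.13, with adjusted p of 0.63, 0.90 and 0.98. With quantile normalization repeated, the fold of Sdhd was -0.01, so that 3 of 4 were above 0. Complex III had 5 of 7 folds above 0 and a median of 0.10. Uqcrc2, its second core protein, had 10.36, 10.69 and 10.79 in control rats and 10.68, 10.79 and 10.95 in extract rats. The fold was 0.18 ± 0.08 (adjusted p = 0.25); control rats 5 and 7 were the low ones, and extract rats 3, 5 and 7 lay above every control. The small subunits Uqcrh and Uqcrq leaned the other way, with folds of -0.18 ± 0.09 each and adjusted p of 0.39 and 0.36. Uqcrb, the brightest gene of the complex, had a fold of 0.08 ± 0.08 (adjusted p = 0.71), and its other 2 probes gave 0.07 and 0.05.

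Cycs, which encodes the cytochrome c of somatic tissue, had 11.42, 11.68 and 11.76 in control rats and 11.63, 11.79 and 11.996 in extract rats. Its fold was 0.14 ± 0.08 (adjusted p = 0.39), and its second probe gave 0.17. In all, 4 extract rats lay above every control rat, and the groups overlapped. Tfam, which packages mitochondrial DNA and starts its transcription, had 7.60, 7.84 and 8.26 in control rats and 7.65, 8.0 and 8.15 in extract rats, a fold of 0.07 ± 0.10 (adjusted p = 0.82). Nrf1, the nuclear transcription factor of many respiratory chain genes, had 6.75, 6.82 and 6.91 against 6.68, 6.77 and 6.98, a fold of -0.04 ± 0.06 (adjusted p = 0.84). It is a different protein from NRF2, the target of carnosic acid named above. The extract range of Nrf1 enclosed its control range, and Nrf1 was among the 3 members of smallest spread.

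Complex IV had 10 of 16 folds below 0 and a median of -0.09. Cox7a2, the form of its subunit found in liver, had 12.53, 12.67 and 13.02 in control rats and 12.21, 12.50 and 12.75 in extract rats. Its fold was -0.25 ± 0.10 (adjusted p = 0.22), and its second probe gave -0.28. In all, 4 extract rats lay below every control, and control rats 1 and 3 stood highest. Cox7c, another small membrane subunit, had a fold of -0.23 ± 0.10 (adjusted p = 0.28), and Cox6c, the brightest gene of the complex, had -0.12 ± 0.07 (adjusted p = 0.46). Ndufa4, which was first assigned to complex I and is now counted with complex IV, had -0.12 ± 0.07 (adjusted p = 0.44). Several subunits exist as tissue forms. The forms widely expressed in liver, Cox4i1, Cox6a1 and Cox8a, had mean values of 12.15, 11.88 and 12.31 in control rats and folds of -0.07 ± 0.09, -0.12 ± 0.09 and 0.04 ± 0.07. Cox4i2 (lung), Cox6a2 and Cox8b (heart and skeletal muscle), Cox6b2 and Cox8c (testis) all had control means under 6, the range in which the RMA method of these arrays compresses differences. Their folds were 0.00 ± 0.10, -0.02 ± 0.09, 0.01 ± 0.09, 0.03 ± 0.10 and 0.15 ± 0.08. The signs of Cox4i2, Cox6a2 and Cox8b turned with the scaling of the arrays, and none of the 5 passed the test. The pseudogene symbols Cox6c-ps1 and Ndufs6-ps1, whose probes may share sequence with the genes they derive from, had folds of -0.04 ± 0.08 and -0.07 ± 0.13.

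ATP synthase had 12 of 16 folds below 0 and a median of -0.04. Atp5mg, a small subunit of the membrane part Fo, had 10.35, 10.89 and 11.21 in control rats and 10.06, 10.54 and 10.77 in extract rats. Its fold was -0.41 ± 0.13 (adjusted p = 0.12). Control rat 5 lay among the lower extract rats, and without it the adjusted p was 0.035, within a range of 0.0353 to 0.248 over the alternatives. Atp5mc2, 1 of the genes for the rotating c ring, had a fold of -0.23 ± 0.11 (adjusted p = 0.33), and its second probe gave -0.06. In the catalytic part F1, the catalytic subunit Atp5f1b had 12.41 ± 0.05 (SD, n = 7) in control rats and 12.50 ± 0.07 in extract rats, and the shaft subunit Atp5f1c 8.08 ± 0.06 and 8.17 ± 0.08. Their folds of 0.09 ± 0.05 and 0.09 ± 0.06 had adjusted p of 0.50 and 0.51, and these were the 2 members with the smallest spread. Atp5f1e, the epsilon subunit of F1 and the brightest gene of the complex, had -0.16 ± 0.08 (adjusted p = 0.39). Divided into parts after the values were seen, 3 of 5 F1 subunits had folds above 0 (median 0.09), and 0 of 10 Fo and stalk subunits did (median -0.07; 1 of 10 with median centring). Atp5if1, the inhibitor that stops ATP synthase from running backwards, had the highest fold of all members, 0.34 ± 0.16 (adjusted p = 0.35). Its values were 9.37, 9.63 and 10.50 in control rats and 9.63, 10.09 and 10.77 in extract rats, and control rat 1 exceeded all extract rats but rat 4. Atp5me, another small subunit of Fo, spread as widely as Ndufa10, with an SD within groups of 0.40 and a fold of -0.12 ± 0.18.

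**Figure D3:**
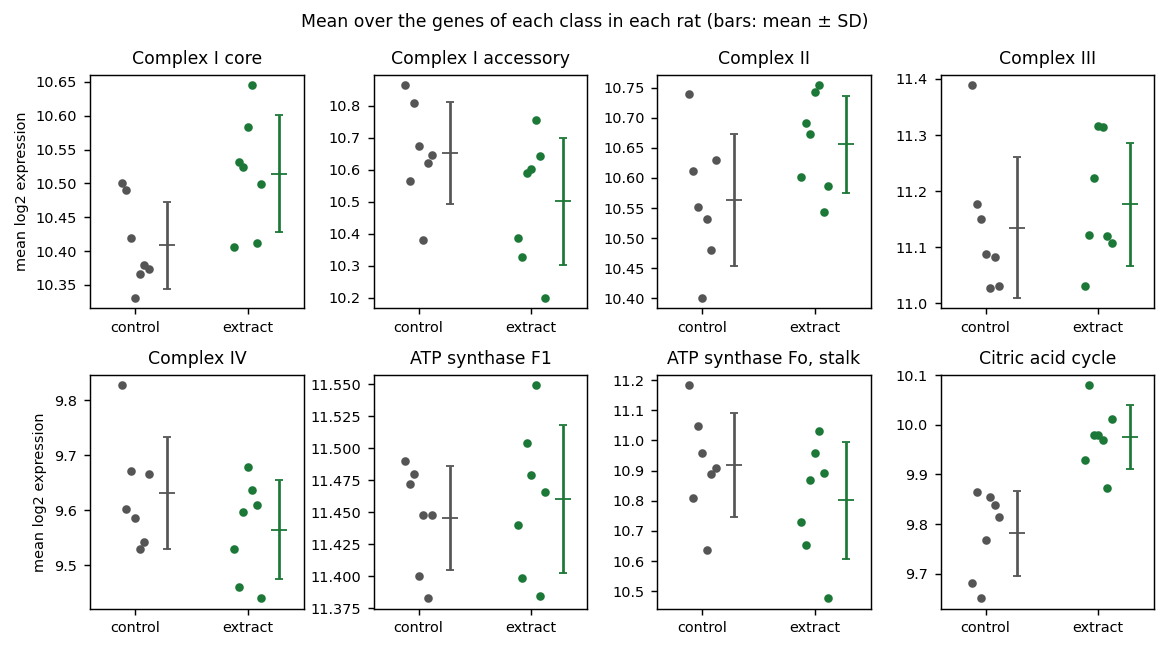
Mean log2 expression over the genes of each class in each rat; points are rats, and bars give the group mean and SD over 7 rats. Axes do not start at 0 and differ between panels. The groups overlap in the 7 respiratory chain panels, whereas the citric acid cycle mean of every extract rat (9.87 to 10.08) lies above that of every control rat (9.65 to 9.86).

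By complex, the mean over members was 10.61 ± 0.14 (SD, n = 7) in control rats and 10.50 ± 0.17 in extract rats for complex I, and 10.56 ± 0.11 and 10.66 ± 0.08 for complex II. It was 11.13 ± 0.12 and 11.18 ± 0.11 for complex III, 9.63 ± 0.10 and 9.56 ± 0.09 for complex IV, and 11.01 ± 0.13 and 10.96 ± 0.14 for ATP synthase. In each the difference was smaller than the larger of the SDs, and the groups overlapped. These means are descriptions, and no test was made of them.

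Members also differed together between individual rats. Control rat 1 had the highest value of all 14 rats in 39 of 83 members (47.0%), against 11.1% of all genes. Extract rat 7 had the lowest value in 27 members (32.5%), against 8.95% of all genes. Within its own group, control rat 5 was lowest in 44 members (53.0%, against 15.4% of all genes), and extract rat 5 was highest in 40 (48.2%, against 16.4%). The 11 members with an unadjusted p under 0.05 and folds below 0 had means of 11.05 (lowest, rat 5), 11.36 (median) and 11.61 (highest, rat 3) in control rats. In extract rats they had 10.69 (rat 7), 11.09 and 11.27 (rat 5). The 4 with folds above 0 (Ndufs1, Ndufv1, Sdha and Uqcrc2) had means of 9.86 (rat 1), 9.94 and 10.18 (rat 2) in control rats and 10.07 (rat 6), 10.19 and 10.39 (rat 7) in extract rats. Both sets were chosen by their folds in these same rats, which builds in the difference between the group means. Extract rat 7 stood lowest in the first set and highest in the second. Control rat 1 stood lowest in the second set and next to highest in the first. Control rat 1 also had the lowest array weight, 0.41, and extract rat 4 the next, 0.463.

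Ribosomal protein genes, which lie outside the chain, also differed from rat to rat. The 68 cytosolic ribosomal protein genes measured, a list taken up after the values were seen, had a mean between 11.32 (rat 5) and 11.75 (rat 1) in control rats and between 10.996 (rat 7) and 11.71 (rat 6) in extract rats, with 61 of 68 folds below 0 and a median of -0.15. The 68 mitochondrial ribosomal protein genes, taken up likewise, ran from 8.63 (rat 5) to 9.11 (rat 1) in control rats and from 8.61 (rat 7) to 9.08 (rat 5) in extract rats, with a median fold of -0.05. The part of these rat-to-rat shifts in the folds of the respiratory chain members was not tested.

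**Figure D4:**
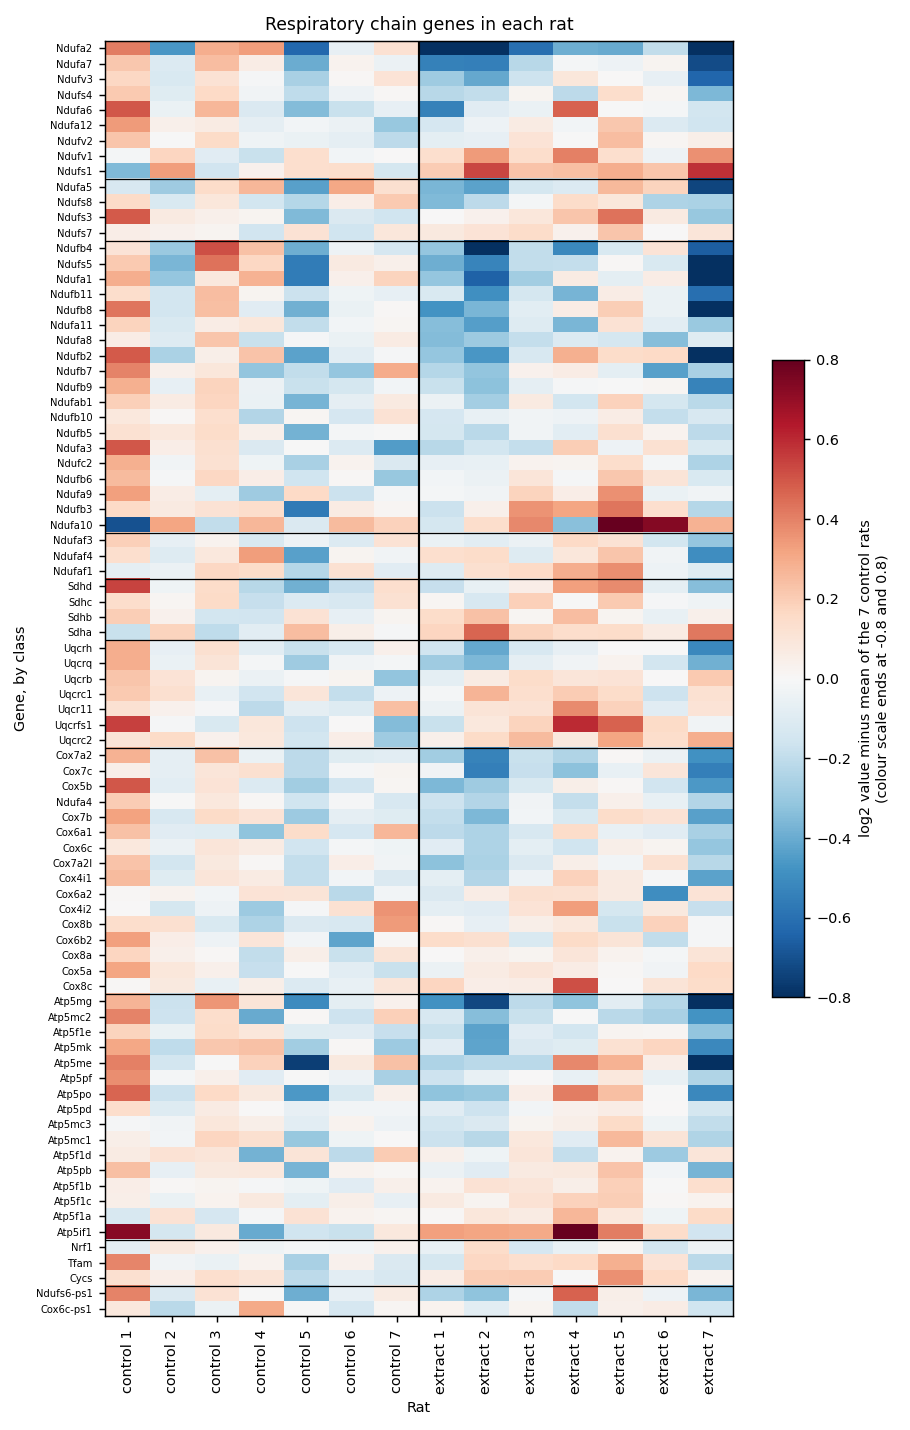
Log2 value of each of the 83 members (rows, by class and then by fold) in each of the 14 rats (columns), minus the mean of the 7 control rats; the colour scale ends at -0.8 and 0.8 and the vertical line parts control from extract rats. Control rat 1 is red over most members and extract rat 7 is blue over most, while Ndufs1 and Sdha show the opposite colours in these 2 rats.

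Other mitochondrial genes were set beside the chain in 6 lists, of which 112 of 134 entries were measured. In these lists 12 genes rose (10.7%), 0 fell, and 5 had an unadjusted p under 0.05 and a fold below 0, against 3.15% called over all genes. The median fold was 0.11, with 88 folds above 0 and 24 below. The citric acid cycle makes NADH and succinate for the chain. Its list, which also holds pyruvate dehydrogenase, the kinases Pdk1, Pdk2 and Pdk4 that switch that enzyme off, and pyruvate carboxylase (Pc), had 18 of 19 folds above 0 and a median of 0.14, and 5 rose. Idh3a, the catalytic subunit of the NAD-dependent isocitrate dehydrogenase, had 7.40, 7.68 and 7.87 in control rats and 7.96, 8.24 and 8.45 in extract rats. It rose by 0.54 ± 0.08 (adjusted p = 0.000711), with every extract rat above every control rat. Suclg2, a subunit of succinyl-CoA ligase, had 10.34, 10.43 and 10.56 against 10.62, 10.78 and 10.95, and rose by 0.34 ± 0.06 (adjusted p = 0.0046), again without overlap. Pdhb and Pdha1, the subunits of the first enzyme of pyruvate dehydrogenase, rose by 0.43 ± 0.10 and 0.33 ± 0.08 (adjusted p = 0.015 and 0.024). The fifth was Idh2, the NADP-dependent isocitrate dehydrogenase, named after its value was seen, with a fold of 0.37 (adjusted p = 0.041). In the unequal-variance test Pdhb, Pdha1 and Idh2 lost their calls (adjusted p = 0.059, 0.071 and 0.1); the range for Pdhb was 0.00775 to 0.059 over the alternatives. Idh2 also lost it without the 2 arrays of lowest weight (0.052). Pdha1 also lost its call when control rat 4, control rat 6, extract rat 2 or extract rat 7 was left out (adjusted p 0.050 to 0.053, within a range of 0.0108 to 0.0708 over the alternatives). Idh2 lost it without any 1 of control rats 2 to 6 (0.062 to 0.080) or extract rats 1 to 5 and 7 (0.058 to 0.084). Leaving out any of control rats 4 and 6 and extract rats 2 and 7 left 3 genes of the list past the threshold.

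In the list of biogenesis and mitochondrial DNA expression, 2 of 19 genes rose, 15 folds were above 0 and 4 below, and the median was 0.12. Ppargc1a, the coactivator that drives mitochondrial gene expression together with Nrf1 and the estrogen-related receptors, had 5.93, 6.06 and 6.75 in control rats and 6.72, 6.95 and 7.03 in extract rats. It rose by 0.75 ± 0.11 (adjusted p = 0.000624), and only extract rat 4 lay below the highest control rat. Tfb1m, which methylates the RNA of the mitochondrial ribosome, had 7.97, 8.17 and 8.40 against 8.41, 8.56 and 8.75, and rose by 0.39 ± 0.07 (adjusted p = 0.0043) without overlap. The members Nrf1 and Tfam, described above, did not pass. Idh3a, Suclg2, Ppargc1a and Tfb1m passed under each of the 25 alternatives.

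A list of 17 genes held 8 that feed electrons to ubiquinone by other routes and 9 of coenzyme Q synthesis, which makes ubiquinone itself. In it Gpd2, the mitochondrial glycerol phosphate dehydrogenase, rose by 0.55 ± 0.13 (adjusted p = 0.024), and the median fold of the list was 0.08. Of 27 assembly factors outside the naming rule, Bcs1l, which inserts the Rieske iron-sulfur protein into complex III, rose by 0.37 ± 0.09 (adjusted p = 0.039), beside a median of 0.06. Of 14 mitochondrial chaperones and proteases, the protease Afg3l2 and the chaperones Dnaja3 and Hspd1 rose, by 0.43 ± 0.09, 0.25 ± 0.06 and 0.36 ± 0.10 (adjusted p = 0.014, 0.047 and 0.048), beside a median of 0.17. The mean of these 14 ran from 9.075 to 9.238 in control rats and from 9.272 to 9.453 in extract rats, without overlap, like that of the citric acid cycle list. Of 16 carriers, proton leak and outer membrane genes 0 passed in limma, with 5 at an unadjusted p under 0.05; the outer membrane channel Vdac2 came first with 0.20 ± 0.06 (adjusted p = 0.077). Gpd2 lost its call when control rats 2 or 3 (0.050 and 0.060) or extract rats 1 or 2 (0.057 and 0.059) were left out, within a range of 0.00662 to 0.126. Bcs1l lost it without control rat 1, 3, 5, 6 or 7 (0.051 to 0.081) or extract rat 2, 3, 4 or 5 (0.062 to 0.092), within 0.0206 to 0.0987. Dnaja3 lost it without any 1 of control rats 1 to 6 (0.054 to 0.11) or extract rats 1 to 5 and 7 (0.057 to 0.10), and Hspd1 without control rat 1 or any of 3 to 7 (0.062 to 0.10) or extract rat 1, 2, 3, 6 or 7 (0.056 to 0.11). In the unequal-variance test Gpd2, Bcs1l, Afg3l2 and Hspd1 lost their calls (0.13, 0.099, 0.051 and 0.12). The range was 0.00624 to 0.0508 for Afg3l2 and 0.0146 to 0.115 for Hspd1, which also lost its call with quantile normalization repeated (0.077). Leaving out the 2 arrays of lowest weight ended those of Bcs1l, Dnaja3 and Hspd1 (0.079, 0.067 and 0.052), and an intensity trend with robust variance those of Bcs1l and Dnaja3 (0.051 and 0.099). With the rat number as a replicate block, Gpd2, Dnaja3 and Hspd1 lost their calls (0.066, 0.14 and 0.054). Over all 6 lists 7 genes passed without control rat 3 or without control rat 6, and 6 without extract rat 2. The difference between these lists and the respiratory chain members was not tested.

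**Figure D5:**
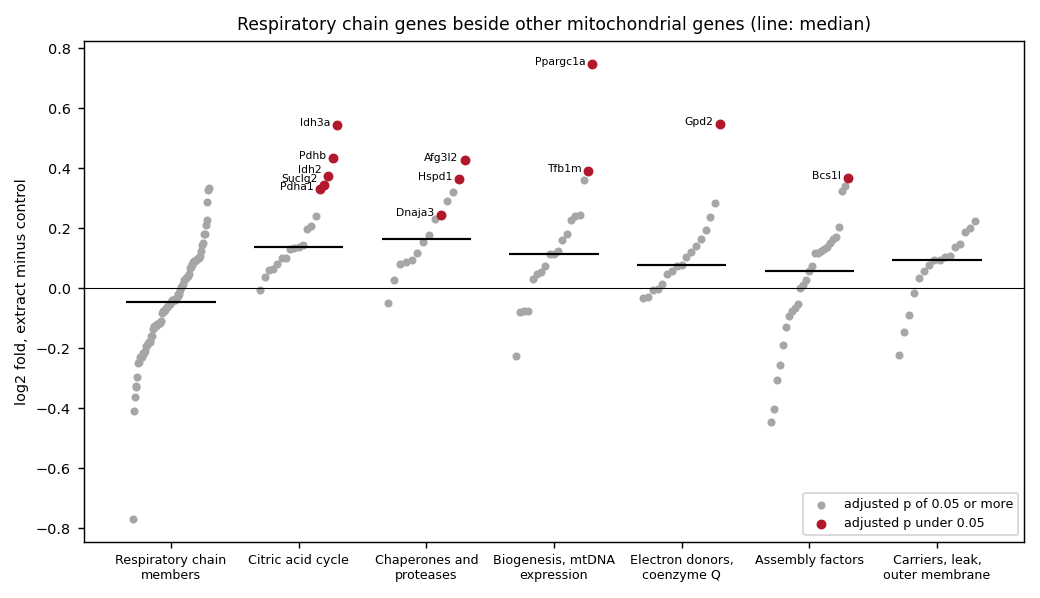
Log2 fold, extract minus control, of the 83 respiratory chain genes (left) and of the genes of 6 other mitochondrial lists; each point is a gene, the horizontal bar is the median of its list, and red marks an adjusted p under 0.05. No respiratory chain gene is red, and the 12 red genes of the other lists all lie above 0.

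Of the markers of other liver cells, 2 of macrophages and 1 of stellate cells passed the test. All 12 Kupffer cell and macrophage markers had folds below 0, with a median of -0.28. In 10 of them (83.3%) the unadjusted p was under 0.05, against 14.8% of all genes. The test called 2 (16.7%, against 3.15% of all genes): Marco fell by 0.73 ± 0.14 (adjusted p = 0.0059) and Vsig4 by 0.51 ± 0.12 (adjusted p = 0.024). The mean of the 12 ran from 8.79 to 9.09 in control rats and from 8.42 to 8.74 in extract rats, without overlap. Vsig4 lost its call without extract rat 1 or 2 (adjusted p 0.054 to 0.062, within a range of 0.0158 to 0.0972). The 8 stellate cell markers were not of 1 sign: 6 folds were below 0 and 2 above. Of the 8, 3 (37.5%, against 14.8% of all genes) had an unadjusted p under 0.05. The test called 1 (12.5%, against 3.15% of all genes): Pdgfrb fell by 0.37 ± 0.09 (adjusted p = 0.042). The list means ran from 7.305 to 7.493 in control rats and from 7.038 to 7.300 in extract rats, without overlap but by a narrow margin. Pdgfrb lost its call without any 1 of 5 control rats (2, 3, 5, 6 and 7; 0.061 to 0.086) or 6 extract rats (all but rat 6; 0.051 to 0.087), within 0.00431 to 0.116. The 5 endothelial markers all had folds below 0 and 0 passed in limma, with 2 (40%, against 14.8% of all genes) at an unadjusted p under 0.05. Their mean ran from 8.69 to 8.84 in control rats and from 8.32 to 8.84 in extract rats. In whole liver, fewer cells of a type and less RNA per cell cannot be told apart. The part of these markers in the folds of the respiratory chain genes was not tested. In the lists of bile duct, T and B cell, red blood cell, skeletal muscle, fat and exocrine pancreas markers 0 genes passed in limma, and at most 1 gene of each had an unadjusted p under 0.05. The hepatocyte marker mean was 12.61 ± 0.08 (SD, n = 7) in control rats and 12.64 ± 0.05 in extract rats.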

How the data were processed

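Total liver RNA from 14 rats, 7 per group, was labelled with a whole-transcript sense-strand protocol and hybridised to Affymetrix arrays, 1 per rat, per the labels' protocols. The authors deposited log2 expression values for 29215 probes. Affymetrix Expression Console 1.1.2 and RMA are named per the submitters' processing notes. RMA compresses folds near background. The genome build was not given in the sources used here. No detection calls or batch labels were used. Groups and rat numbers came from the sample titles.

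Probe names came from the platform annotation of GEO: 15310 had 1 gene symbol, 323 had several and 13582 were unnamed here. Symbols were checked by Entrez identifier in the GRCr8 gene table, which held 15279 and changed 0. The brightest probe stood for each of the 527 genes with several, which gave 14506 genes, and in 2 members (Atp5mc3 and Ndufv3) the probes differed in sign. Groups were compared over all genes with limma 3.58.1 (lmFit, eBayes, two-sided) in R 4.3.3 without covariates, with Benjamini-Hochberg adjustment over all genes and a threshold of 0.05. The code was tested on simulated data. The error of a fold is its limma standard error. Named were members that passed in any limma fit, the 3 smallest p and the brightest gene of each class, Cycs, Tfam, Nrf1, the Sdh genes, tissue isoforms, the 3 smallest and 3 largest spreads, and at most 4 passing genes of each other list; exceptions are marked in the text. The members and all lists were chosen with earlier results of these data known, so no test over a list was made.

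Other settings tried were quantile normalization repeated, arrays centred on their medians, dim genes dropped (mean under 6 or under the median gene), all probes averaged or each tested, an intensity trend, array weights, unequal variances, a replicate block, an adjusted p of 0.1 and leaving out each rat. Chosen after seeing the data were the fit without the 2 arrays of lowest weight and the counts over the other mitochondrial lists. Python 3.11.15 with pandas 2.3.3 and matplotlib 3.10.9 made the tables and figures.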

Additional observations from a re-analysis of the deposited data

Results flagged for a closer look

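In 7 of 128 groups of 7 rats checked, the highest or lowest rat stood apart: its gap to the nearest rat, as a share of the range of the group, exceeded Dixon's 95% critical value. At this limit chance marks about 5% of groups. Among the members these were Atp5if1 in control rat 1 (10.5018, with the next rat at 9.86), Cox6a2 in control rat 6 (5.09, with the next at 5.28) and in extract rat 6 (4.81, with the next at 5.19), and Cox8c in extract rat 4 (4.22, with the next at 3.87). The mean of the 7 complex III genes was also far higher in control rat 1 (11.39) than in the next control rat (11.18). Outside the chain, Afg3l2 was far higher in extract rat 2 (8.36) than in the next (8.02), and Ppargc1a was far lower in extract rat 4 (6.72) than in the next (6.93).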

How the results depend on the processing

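The count of members that passed was 1 with repeated quantile normalization, 1 with median centring, 1 with either filter on dim genes, 1 with array weights and 2 at an adjusted p of 0.1. It was 0 to 2 when 1 rat was left out, and 0 in the other alternatives. Which member passed differed between them, among Ndufa2, Ndufs1, Ndufa8 and Atp5mg. The count over all genes was 694 with array weights, 227 in the unequal-variance test and 719 at an adjusted p of 0.1, and 326 to 621 when 1 rat was left out. The unequal-variance test called 2 citric acid cycle genes and 5 genes of the 6 other mitochondrial lists. Leaving out 1 rat gave 3 to 5 and 6 to 13. The median fold of the members stayed between -0.07 and -0.01 in all 25 alternatives, and the mean difference of each complex kept its sign in all 17.

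Rat numbers did not pair the groups: same-numbered rats correlated at -0.46 to 0.282 in their deviations, and 2 of 7 rats matched best with their own number. With the rat number as a replicate block, 0 members, 8 genes of the 6 other mitochondrial lists and 364 genes in all passed.

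Among the named members, 9 changed sign in at least 1 alternative, 8 of them with folds within 0.05 of 0 and Atp5me with -0.12. With repeated quantile normalization Cox4i2 had -0.0152, Cox8b -0.00085 and Sdhd -0.0125. With median centring Cox6a2 had 0.0162 and Ndufaf4 0.0297. With array weights Cox6c-ps1 had 0.00442 and Ndufaf4 0.00685. Without the 2 arrays of lowest weight Cox4i2 had -0.0503 and Ndufaf4 0.00125. Leaving out 1 rat gave -0.250 to 0.00653 for Atp5me, -0.0503 to 0.0643 for Cox4i2, -0.0538 to 0.0620 for Cox6a2, -0.0433 to 0.0818 for Cox6b2, -0.0765 to 0.00974 for Cox6c-ps1, -0.0320 to 0.0661 for Cox8b, -0.0773 to 0.0772 for Ndufaf4, -0.0198 to 0.0724 for Ndufb6 and -0.0502 to 0.104 for Sdhd. The cause of these changes was not tested. With 7 arrays per group, changes smaller than about the 95% intervals given could not be told from 0, and dim tissue isoforms lay where RMA compresses differences.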
